A study of Mus musculus with 6 samples.

Results

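Vasopressin (Avp), oxytocin (Oxt) and the receptors Avpr1a and Oxtr were followed by gene symbol in single-cell RNA profiles of the mouse preoptic region, 4 of the 27998 genes in the deposited table. They were read as raw UMIs (unique molecular identifiers, the tags by which single captured RNA molecules are counted) in cells with at least 500 detected genes and at most 20% mitochondrial UMIs. The 3 female and the 3 male libraries each held preoptic tissue pooled from 3 mice aged 60 to 70 days that had been kept alone for 3 days, and no strain, mutation or drug was named. The brains were dissected fresh, the cells freed with protease, and live cells sorted by flow cytometry before capture on the 10x Chromium platform. Only the pool is a replicate, so p-values measure the spread between pools and not between single mice.

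Vasopressin and oxytocin are small peptide hormones that differ in a pair of amino acids and come from neighbouring genes. Each is cut from a precursor that also holds a carrier protein, neurophysin. Large magnocellular neurons of the paraventricular and supraoptic nuclei release both hormones into the blood, and these neurons use glutamate. A separate group of GABA neurons in the suprachiasmatic nucleus, the body clock at the ventral edge of the preoptic region, makes vasopressin with a daily rhythm. Avpr1a encodes the V1a vasopressin receptor and Oxtr the oxytocin receptor, both of which act through Gq proteins, phospholipase C and calcium and take part in social, parental and circadian behaviour.

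The stretch that sets the hormones apart is short. The hormone codons with the glycine, lysine and arginine codons that mark amidation and cleavage lie in exon 1 of each gene on chromosome 2 (build GRCm38), and capitals mark the letters from which the sequences differ.
Avp, chr2:130582437-130582472, minus strand: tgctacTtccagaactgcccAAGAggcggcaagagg
Oxt, chr2:130576267-130576302, plus strand: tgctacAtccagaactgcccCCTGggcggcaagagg
All 5 differing bases fell within the 27 hormone bases. Avp (chr2:130580620-130582554, minus strand) and Oxt (chr2:130576173-130577054, plus strand) have 3 exons each, point towards each other and are 3565 bases apart. Exon 2, which codes most of neurophysin, is 202 bases long in both genes and identical at 193 of them (95.5%), with a longest shared run of 125 bases. Exon 3, at the polyadenylated end, is 230 bases long in Avp and 178 in Oxt and shares no run longer than 8 bases. The labels do not say how reads from the shared run were counted. Avpr1a lies at chr10:122448499-122453452 (plus strand) and Oxtr at chr6:112473683-112489943 (minus strand), and each is annotated with 2 exons.

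The 250 bases before the transcription start are shown for both peptide genes (RefSeq, GRCm38.p6) because the clock genes and the peptide genes are compared below in the same cells. Capitals mark CACGTG, the E-box bound by the clock proteins CLOCK and BMAL1, and AGGTCA, a half-site of nuclear receptors that reads TGACCT on the other strand. Both strands were searched, and the marked motifs do not overlap.
Avp, chr2:130582589-130582838, minus strand: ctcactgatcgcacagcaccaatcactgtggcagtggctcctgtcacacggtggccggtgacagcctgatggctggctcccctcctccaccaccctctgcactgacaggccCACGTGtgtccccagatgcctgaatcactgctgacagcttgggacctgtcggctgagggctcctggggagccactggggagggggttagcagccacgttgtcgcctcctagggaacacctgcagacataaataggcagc
Oxt, chr2:130575919-130576168, plus strand: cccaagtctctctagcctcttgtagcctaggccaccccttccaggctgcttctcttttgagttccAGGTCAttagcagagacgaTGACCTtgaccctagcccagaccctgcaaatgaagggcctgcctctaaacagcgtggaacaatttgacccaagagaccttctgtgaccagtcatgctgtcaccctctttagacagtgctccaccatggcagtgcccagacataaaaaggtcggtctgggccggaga
The Avp window held 1 E-box, 139 bases before the start, and no half-site. The Oxt window held no E-box and 2 half-sites, at 185 and 166 bases before the start. Among 32851 mouse promoter windows of the same length, 6.02% held the E-box letters and 14.02% the half-site letters. The Oxtr window held 1 of each, and the Avpr1a window held neither.

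Of 31299 barcodes, 30824 cells were kept. Female library 3 was the smallest, with 410 cells, against 1962 to 9749 in the others, and median depth ran from 2684 to 6757 UMIs in the female and from 3628.5 to 5542 in the male libraries. Libraries shared 479 barcode sequences. Clusters made without the peptide and receptor genes gave 18196 neurons, of which 13585 were inhibitory-like, 3243 excitatory-like and 1368 carried no clear transmitter class. Among 38 clusters of neurons, cluster 1 was led by Vipr2, Prokr2 and Nms, genes of the suprachiasmatic nucleus, and cluster 4 by Adora2a, Penk and Gpr6, genes known from the striatum. A further 1002 cells (3.25%) were called doublets.

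Avp RNA came from a small population of neurons that carried most of it, over a thin background in every cell type. The Avp level was 613, 973 and 515 CPM (UMIs of the gene for each 1000000 counted) in female libraries 1, 2 and 3, against 278, 201 and 435 CPM in male libraries 1, 2 and 3. All 3 female libraries lay above all 3 male ones, as they did for 3.05% of the 16139 genes tested. In either direction 6.7% of those genes did not overlap. An Avp UMI was found in 27.99%, 49.2% and 2.93% of female cells, against 15.1%, 7.31% and 13.2% of male cells, an order that did not follow the level. Mature oligodendrocytes, which are not known to make Avp, gave the background of free RNA. Their Avp level was 41.4, 89.3 and 0 CPM in female libraries 1, 2 and 3, against 20.8, 9.43 and 16.4 CPM in male libraries. The background was deepest in female library 2, where 36.6% of oligodendrocytes held an Avp UMI.

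Peptide-rich cells rose above that background, but no gap in UMI counts set them apart. Cells were called high-UMI when they held at least 20 UMIs of the peptide at a share of their UMIs at least 10 times that in the oligodendrocytes of their library. Of all cells, 564 were high-UMI for Avp. Counts ran without a gap, with 5421 cells at 1 Avp UMI, 53 at 5 to 9 and 307 at 100 or more and under 500. These bins differ in width, so their counts do not place a low point or a peak. Just inside the rule were 43 cells with 20 to 29 UMIs and just outside it 60 cells with 10 to 19. No oligodendrocyte held more than 15 Avp UMIs, and 2 of 5244 held 5 or more. The 539 high-UMI Avp cells that were neurons carried 86.3% of all Avp UMIs. Their median was 126 Avp UMIs, or 1.73% of a cell's RNA, and the highest was 3306 UMIs. Oxt gave no comparable population, with 3 high-UMI cells in all.

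**Figure D1:**
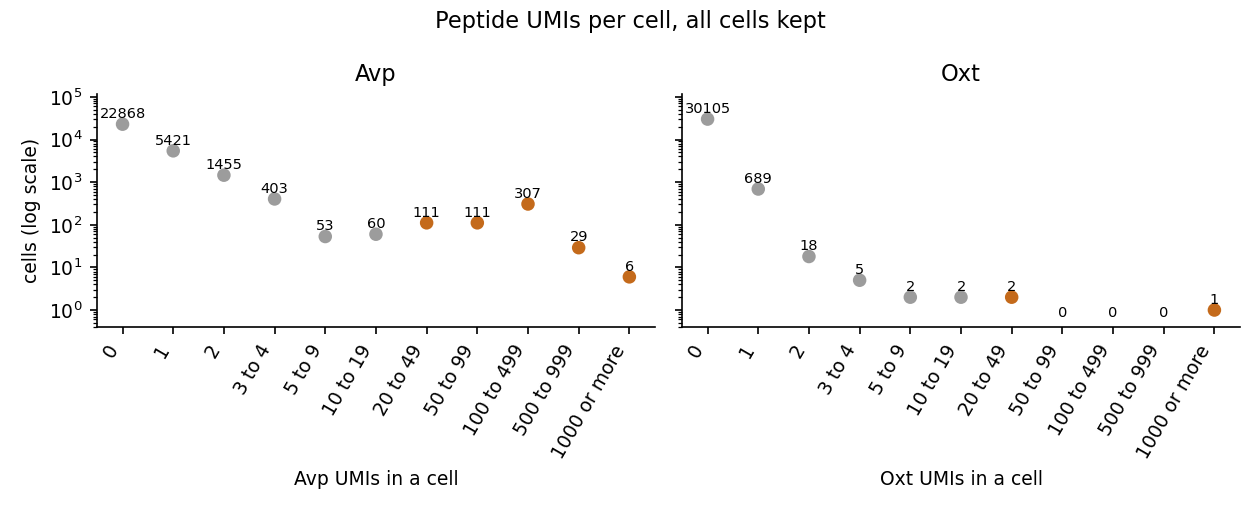
Cells (log scale) by the number of Avp UMIs (left) and Oxt UMIs (right) they held, over all 30824 cells kept; orange points are bins of 20 or more UMIs and grey points lower bins. The bins differ in width. Avp has 307 cells at 100 or more and under 500 UMIs, while Oxt has 1 cell at 1000 or more and 2 at 20 to 49.

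Nearly all Avp neurons were of the clock nucleus type. Of the 539, 520 (96.5%) sat in neuron cluster 1, and they made up 52.9% of its 983 cells. By transmitter class, 529 were inhibitory-like and 10 excitatory-like. Among the inhibitory-like ones, 90.2% held a Gad1 UMI (the GABA-making enzyme), 52.7% a UMI of Nms (neuromedin S, a clock peptide), 38.4% of Vipr2 (the receptor for the clock peptide VIP), and 1.70% of Otp (a factor of the paraventricular and supraoptic nuclei). As a group the 10 excitatory-like cells differed in kind. Slc17a6, the vesicular glutamate transporter, was found in 8 of them, Otp in 9 and Sim1 (another factor of magnocellular neurons) in 6. Pdyn (dynorphin, made by magnocellular vasopressin neurons) was found in 8 and Nms in 0. Their median was 976.5 Avp UMIs, against 124 in the inhibitory-like cells, and Avp took a median 9.20% of their RNA, against 1.70%. The group was not uniform, with 28 Avp UMIs in a cell of female library 2 and 31 in a cell of male library 2. The latter held 0 UMIs of Otp, Sim1 and Pdyn. Of the 10 cells 8 came from female library 2 and 2 from male library 2, so no comparison between sexes rests on them.

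High-UMI Avp neurons were a larger share of the neurons in every female pool than in any male pool, a separation at the limit of what 6 pools can test. Female libraries 1, 2 and 3 held 110, 234 and 7 such neurons, or 3.69%, 3.79% and 6.48% of their neurons, against 98, 62 and 28 (2.18%, 1.79% and 2.88%) in male libraries 1, 2 and 3. The means were 4.65% ± 1.58 in female and 2.29% ± 0.55 in male pools (SD, n = 3 each). The difference of 2.37 percentage points had p = 0.1 by exact two-sided permutation test, the smallest p that 3 against 3 allows (0.267 adjusted over 8 measures). Without female library 3 the difference was 1.45. Median depth of the other neurons was 8108, 8543.5 and 3188 UMIs in female libraries 1, 2 and 3. It was 5641, 6445 and 4129 UMIs in male libraries 1, 2 and 3. The minimum of 20 UMIs did not change with depth, and the part of depth in these shares was not tested. A pair of related measures separated the same way. Neuron cluster 1 as a whole was 6.75%, 6.18% and 12.04% of female neurons, against 4.73%, 3.50% and 5.46% of male neurons (p = 0.1, exact). The Avp level contributed by high-UMI neurons was 543, 842 and 501 CPM in female, against 207, 187 and 383 CPM in male libraries (p = 0.1, exact).

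Inside the cluster the pools overlapped. High-UMI Avp cells were 53.7%, 58.1% and 46.2% of neuron cluster 1 in female libraries 1, 2 and 3, against 46.01%, 48.8% and 50.9% in male libraries (p = 0.3, exact permutation). Their Avp level was 23053, 28000 and 16365 CPM in female, against 13899, 19805 and 21894 CPM in male libraries (p = 0.4, exact). Avp from all other cells was 69.8, 130 and 13.7 CPM in female, against 71.2, 13.8 and 51.7 CPM in male libraries (p = 0.7, exact). These other cells include high-UMI cells among the called doublets and in non-neuronal clusters. High-UMI doublets held 13.7% of the Avp UMIs of male library 1, and 0% to 4.62% of those of each other library. The oligodendrocyte level did not separate the sexes either (p = 0.4, exact). How far dissection differed between pools was not tested. In a library sum, fewer cells of a type and less RNA per cell cannot be told apart.

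**Figure D2:**
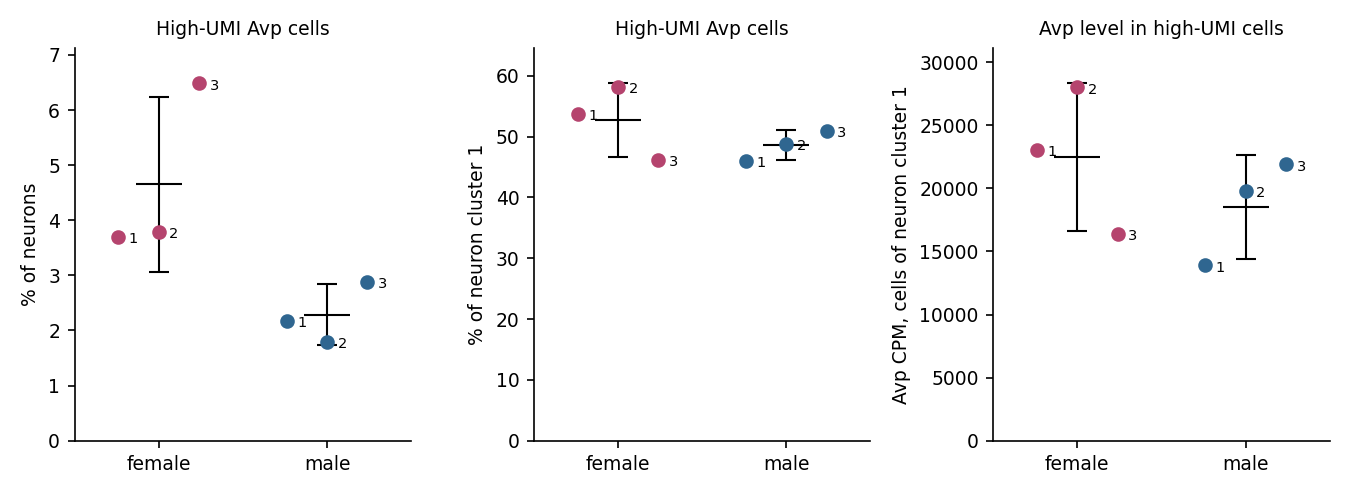
High-UMI Avp cells as percent of neurons (left), as percent of neuron cluster 1 (middle), and their Avp level in CPM within that cluster (right), for 3 female and 3 male libraries; points are libraries with their replicate number, bars are the mean ± SD. The female points all lie above the male points in the left panel (3.69% to 6.48%, against 1.79% to 2.88%) and overlap them in the others.

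In the main fits across all genes, which used no replicate block, no member was called different between the sexes. In all cells 7 of 16139 genes were called at an adjusted p under 0.05 (0.0434%; 0.0124% higher and 0.031% lower in female), and 0 of the 4 members were, while 383 genes had an unadjusted p under 0.05. Avp was 1.19 ± 0.34 higher in female on the log2 scale (± SE) with an adjusted p of 1.0 by the edgeR quasi-likelihood test, and 6.7% of the genes tested had libraries that did not overlap by sex, 3.05% with female above male. In inhibitory-like neurons 7 of 14324 genes were called (0.0489%; 0.014% higher and 0.0349% lower), and 857 had an unadjusted p under 0.05. There Avp was 1024, 1397 and 1683 CPM in female, against 469, 451 and 927 CPM in male libraries, a log2 difference of 1.16 ± 0.25 with an adjusted p of 0.39 (edgeR quasi-likelihood), while 12.6% of genes had no overlap, 3.73% in that direction. Summed levels of 5 marker lists of other cell types did not overlap between the sexes in these neurons. Mature oligodendrocyte markers (8 genes) came to 534 to 571 CPM in female and 703 to 1513 CPM in male libraries, and those of newly formed oligodendrocytes to 63.4 to 81.8 and 87.8 to 92.6 CPM. Astrocyte markers came to 159 to 224 CPM in female and 229 to 245 CPM in male libraries, excitatory neuron markers to 5.28 to 22.8 and 23.1 to 24.1 CPM, and fibroblast markers to 2.64 to 4.23 and 1.90 to 2.34 CPM. Of these markers 0 were called, and their part in the result was not tested. Within neuron cluster 1 the Avp difference was 0.62 ± 0.20 (adjusted p = 0.64, edgeR).

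In excitatory-like neurons 8 of 12621 genes were called (0.0634%; 0.0238% higher and 0.0396% lower), with female library 3 left out for holding too few cells. Libraries did not overlap for 21.3% of genes, 7.88% with female higher, and 752 genes had an unadjusted p under 0.05. Mature oligodendrocyte markers came to 478 to 496 CPM in female and 761 to 1401 CPM in male libraries, and markers of dividing cells to 4.50 to 6.66 and 7.36 to 9.48 CPM, with 0 called. Avp was 44.1 and 1074 CPM in female libraries 1 and 2, against 22.6, 97.1 and 29.6 CPM in male libraries, a log2 difference of 3.45 ± 0.89 (adjusted p = 0.62, edgeR) that became -0.21 without female library 2. With the 10 high-UMI cells removed Avp averaged 61.9 CPM in female and 24.4 CPM in male libraries and was called (log2 1.51 ± 0.23, adjusted p = 0.042, edgeR). The oligodendrocyte levels of Avp in those same libraries, 41.4 and 89.3 CPM in female, against 20.8, 9.43 and 16.4 CPM in male, moved with it, and the part of these levels and of the marker sums in the result was not tested. Oxt differed by -1.67 ± 1.40 in all cells (adjusted p = 1.0, edgeR), a value that became 1.96 without male library 1, which held its one strong cell. Avpr1a differed by 0.35 ± 0.24 and Oxtr by -0.50 ± 0.22 in inhibitory-like neurons (adjusted p = 0.88 and 0.82, edgeR). Oxtr was 3.35, 3.01 and 0 CPM there in female libraries 1, 2 and 3, against 4.25, 4.52 and 5.19 CPM in male libraries, without overlap. In inhibitory-like neurons 12.6% of the genes tested did not overlap by sex, in either direction. The 0 of female library 3 rests on 89 cells with 378467 UMIs. Avpr1a averaged 4.85 ± 1.96 CPM in female and 5.17 ± 1.76 CPM in male libraries (SD, n = 3 each), so the sign of the fitted difference and that of the means differed.

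High-UMI Avp neurons carried the gene set of the clock nucleus and more of most hormone-processing genes than all other neurons, and held less of most other peptides. The 532 high-UMI neurons of 5 libraries were set against the remaining neurons of the same libraries, library as block; female library 3, with 7 such cells, did not enter. Of 11834 genes, 5947 were called (50.3%), 2824 higher (23.9%) and 3123 lower (26.4%), with a median log2 fold of -0.04. Scaling to total UMIs in place of TMM lowered the median fold by 0.26 to -0.30 and gave 1699 higher and 5021 lower calls, so that 25.3% of calls were higher, against 47.5%. With this many genes called, a list is read by its counts beside these shares.

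Of 17 genes listed as marks of the clock nucleus, 14 were higher and 3 lower (median log2 fold 2.43), counts that were the same under total-UMI scaling. Nms was 284, 209, 127, 194 and 127 CPM in the Avp neurons of female libraries 1 and 2 and male libraries 1, 2 and 3, against 7.31, 6.02, 4.63, 3.33 and 6.92 CPM in their other neurons. No library overlapped, and the log2 fold was 5.41 ± 0.14 (adjusted p = 1.64e-28, edgeR quasi-likelihood). Rorb, a nuclear receptor that feeds into the clock loop, averaged 553 ± 111 CPM in Avp neurons and 58.8 ± 10.1 CPM in other neurons (SD, n = 5). Six6, a factor needed to form the nucleus, was 3.79 ± 0.12 higher on the log2 scale and C1ql3, a secreted synapse protein, 3.49 ± 0.11. Vipr2 and Prokr2, receptors for the clock signals VIP and prokineticin, were 4.99 ± 0.21 and 4.03 ± 0.16 higher. But Vipr2, Prokr2, Nms and Six6 are all among the leading genes of the cluster that holds most of these cells. The 3 lower genes were Vip, Grp and Calb2, which mark the ventral core of the nucleus where vasopressin cells are sparse. Vip was 18.9, 84.5, 70.3, 2.26 and 6.70 CPM in Avp neurons, against 108, 141, 85.5, 38.6 and 171 CPM in other neurons of the same libraries (log2 -0.87 ± 0.19). Calb2 averaged 73.6 ± 11.8 and 450 ± 30.6 CPM (log2 -2.30 ± 0.09).

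Core clock genes were higher in 10 of 13 cases and lower in 0 (median log2 fold 0.82). Per2, a repressor of the loop, was 90.8, 58.7, 56.8, 81.3 and 53.6 CPM in the Avp neurons of the same 5 libraries, against 13.1, 12.7, 14.9, 11.3 and 14.7 CPM in other neurons. Every Avp value lay above every other value, with a log2 fold of 2.64 ± 0.16 (adjusted p = 5.62e-17, edgeR). Cry1, its partner, was 2.09 ± 0.10 higher, Nr1d1 1.37 ± 0.17 and Bhlhe41 1.25 on the log2 scale. Per1, at 19.1 ± 7.93 CPM in Avp neurons and 24.2 ± 3.78 CPM in other neurons, was not called. Time of day at sampling is not given in the labels, so these are levels at an unknown phase.

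Hormone processing genes were higher in 10 of 11 cases and lower in 1 (median 0.74), and in 8 cases under total-UMI scaling. Pcsk2, a protease that cuts prohormones, averaged 365 ± 66.5 CPM in Avp neurons and 139 ± 8.06 CPM in other neurons (log2 1.59 ± 0.08). Chga, a granule protein, averaged 665 ± 94.0 and 263 ± 20.9 CPM (log2 1.55 ± 0.07). Pam, which adds the terminal amide that both hormones need, was 1.37 ± 0.09 higher, Cpe 1.07 and Chgb 1.03. The exception was Pcsk1n, an inhibitor of prohormone cutting, at 1662 ± 210 CPM in Avp neurons and 2768 ± 235 CPM in other neurons (log2 -0.48 ± 0.06).

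Of 15 other peptide genes, 11 were lower and 2 higher. Npy was 6.30, 11.3, 5.98, 4.52 and 13.4 CPM in Avp neurons, against 167, 195, 168, 190 and 159 CPM in other neurons (log2 -4.13 ± 0.16). Sst averaged 29.2 ± 21.4 and 541 ± 144 CPM (log2 -3.66 ± 0.13), and Trh 14.4 ± 8.65 and 176 ± 59.5 CPM (log2 -3.29 ± 0.16). The higher pair were Nnat, neuronatin, an imprinted gene counted here among the peptides, at 5798 ± 1298 CPM in Avp neurons and 572 ± 55.9 CPM in other neurons (log2 3.56 ± 0.07), and Cck, cholecystokinin (log2 1.21 ± 0.18). Genes of magnocellular and paraventricular identity were higher in 2, lower in 5 and not called in 2 of 9 cases. Magel2 (log2 0.80 ± 0.15) and Calb1 (0.37 ± 0.07) were higher, Otp (-0.92 ± 0.25) and Nhlh2 (-2.15 ± 0.46) lower. Calb1 was not called under total-UMI scaling (0.11).

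Transmitter genes followed the GABA class, with Gad1 (log2 0.37) and Slc32a1 (0.18) higher, and Slc17a6, Th, Slc18a2 and Gad2 lower, among 8 tested. Neither higher call held under total-UMI scaling, where Slc32a1 was -0.08. Slc17a6 averaged 9.87 ± 11.9 CPM in Avp neurons and 92.7 ± 8.85 CPM in other neurons (log2 -2.93 ± 0.22). Steroid and metabolic hormone receptors were lower in 7 of 8 cases and higher in 0 (8 lower by total UMIs). Esr1, the estrogen receptor alpha, was listed at 0 in 4 of the 5 sets of Avp neurons and 1.88 CPM in that of female library 2, against 6.92 to 18.2 CPM in other neurons (log2 -3.68 ± 0.49), and Prlr, the prolactin receptor, averaged 15.6 ± 5.33 and 82.1 ± 16.2 CPM (log2 -2.17 ± 0.16).

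**Figure D3:**
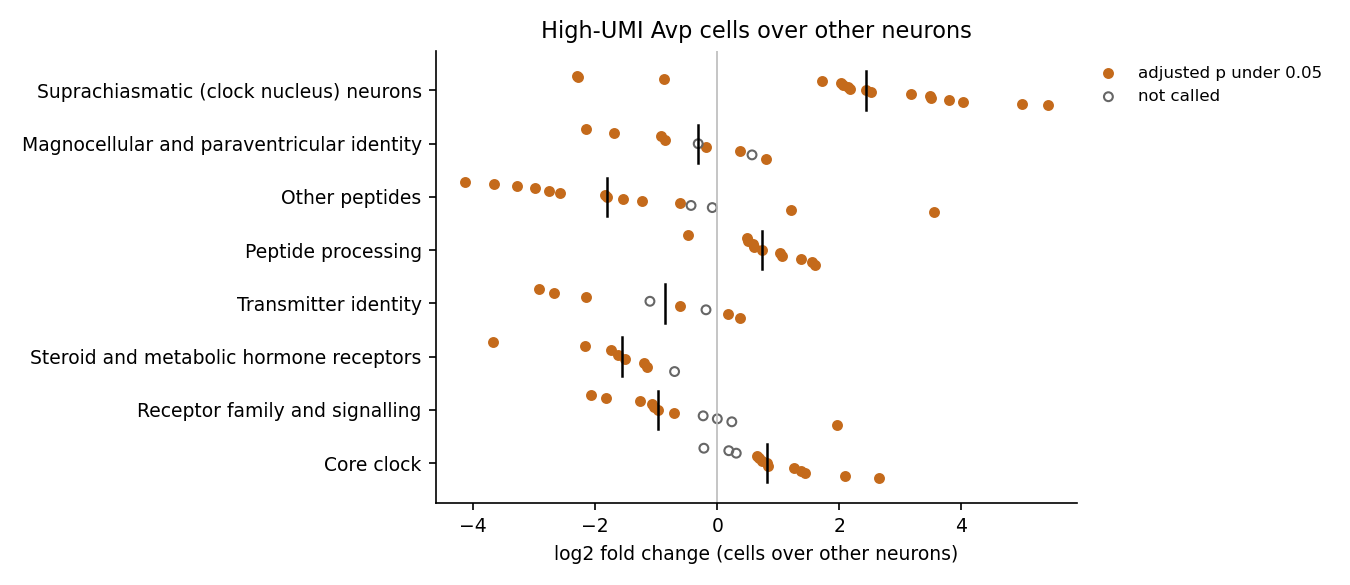
Log2 fold change of each tested gene of 8 lists in high-UMI Avp neurons over other neurons (5 libraries, library as block); filled points passed an adjusted p of 0.05, open points did not, and bars are list medians. Clock nucleus genes centre on 2.43 and core clock genes on 0.82, and hormone receptors lie below 0, with a median of -1.57.

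Among the receptors themselves, Avpr1a was higher in the vasopressin cells and Oxtr was not separable. Avpr1a was 22.7, 22.1, 25.4, 38.4 and 60.3 CPM in the Avp neurons of female libraries 1 and 2 and male libraries 1, 2 and 3, against 5.22, 3.94, 3.80, 2.30 and 3.66 CPM in other neurons. It was higher in 5 of 5 libraries (108 UMIs, log2 3.10 ± 0.26, adjusted p = 6.49e-13, edgeR). Oxtr averaged 4.71 ± 5.16 CPM in Avp neurons and 3.50 ± 0.70 CPM in other neurons on 12 UMIs (adjusted p = 0.78, edgeR). Of the genes downstream of both receptors, 7 of 11 were lower and 1 higher. Prkca, protein kinase C alpha, averaged 176 ± 38.0 CPM in Avp neurons and 56.5 ± 5.15 CPM in other neurons (log2 1.96 ± 0.09). Rgs4, a brake on Gq signalling (log2 -2.06 ± 0.14), and Plcb1, a phospholipase C (-1.26 ± 0.12), were among the lower ones.

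The genes with the largest folds among those moving one way in every library were Rhbdl2 (log2 6.22), 3100003L05Rik (5.69), Nms, Tspo2 (5.41), 9330185C12Rik (5.39), Edaradd and Hdc (5.27 each), Grin2c (5.07), Prr5l (5.05) and Pros1 (4.99). Of these, Nms, Prr5l and Pros1 are also among the leading genes of neuron cluster 1, which holds most of these cells. Hdc, the histamine-making enzyme, averaged 41.1 ± 22.7 CPM in Avp neurons and 1.06 ± 0.38 CPM in other neurons. At the other end, Gpr149, Crabp1, Fam212b, Pthlh and Glt8d2 held 0 UMIs in the Avp neurons. Against a floor of 3 UMIs over the group, Gpr149 was at least 16.6-fold lower and Glt8d2 at least 6.65-fold lower.

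Markers of other cell types were read in the same fit. Of 8 mature oligodendrocyte markers 6 were higher in Avp neurons, though their summed level was 590 to 1233 CPM there and 519 to 1504 CPM in other neurons. Astrocyte markers were lower in 2 of 6 cases and higher in 0 (26.8 to 97.2 CPM, against 228 to 247 CPM), and tanycyte markers lower in 2 of 2 (6.30 to 17.8 CPM, against 72.6 to 119 CPM, with Rax at 0). Ependymal markers came to 18.1 to 33.5 CPM in Avp neurons and 4.64 to 7.67 CPM in other neurons, and the 1 gene tested was higher. Blood cell markers were lower in 3 of 3 cases (4.52 to 20.2 CPM, against 4.16 to 122.6 CPM), oligodendrocyte precursor markers in 2 of 4 (113 to 188 CPM, against 209 to 311 CPM) and excitatory neuron markers in 1 of 2 (0 to 36.1 CPM, against 89.6 to 112 CPM, with Slc17a7 at 0). Their part in the gene lists was not tested.

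Within neuron cluster 1 the high-UMI Avp cells could be set against neighbours of the same type, which also held Avp. Avp in the rest of the cluster was 392, 296 and 321 CPM in female libraries 1, 2 and 3. It was 360, 290 and 819 CPM in male libraries 1, 2 and 3. Mature oligodendrocytes held 0 to 89.3 CPM, so the comparison is of high against lower Avp. Of 7298 genes, 593 were called (8.13%), 302 higher (4.14%) and 291 lower (3.99%). This comparator and the genes named from it were chosen after the data were seen. Avpr1a remained higher, with 34.3 CPM in the high-UMI cells and 13.5 CPM in the rest of the cluster (log2 1.02 ± 0.26, adjusted p = 0.0081, edgeR). By library it was 23.3, 24.2 and 0 CPM in the high-UMI cells of female libraries 1, 2 and 3, against 21.2, 11.0 and 26.7 CPM in the rest (the third rests on 6 and 7 cells and did not enter the test), and 25.4, 37.8 and 61.0 CPM in the high-UMI cells of male libraries 1, 2 and 3, against 15.2, 11.2 and 8.80 CPM. An Avpr1a UMI was found in 15% of the 520 high-UMI cells and in 8.42% of the other 463, at median depths of 7398.5 and 7492 UMIs. Nms (log2 1.39), Prok2 (1.38), Nnat (0.88), Bhlhe41 (0.59) and Cry1 (0.37) also remained higher. Calb2 (-2.22), Cck (-2.12; 206 CPM, against 734), Penk (-1.35) and Vip (-1.32) were lower. Some genes turned round here. Prokr2, 4.03 higher against all other neurons, was lower than in the rest of the cluster, at 120 CPM in the high-UMI cells and 181 CPM in the rest (log2 -0.73 ± 0.11, adjusted p = 8.28e-06, edgeR). Cck, Chga (-0.60), Calb1 (-0.37), C1ql3 (-0.28) and the GABA genes Gad1 (-0.45) and Slc32a1 (-0.27), higher against all other neurons, were also lower here, and Gad2 was lower in both (-0.32 here). Of the processing genes called here only Pcsk2 was higher (0.35), while Cadps2 (-1.05), Pcsk1 (-0.69), Chga and Pcsk1n (-0.19) were lower.

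Oxt was at background in nearly all cells. Its level was 1.64, 6.09 and 14.5 CPM in female libraries 1, 2 and 3, against 43.1, 0.976 and 1.94 CPM in male libraries, and the libraries overlapped. The 2 highest libraries owed their place to 1 cell each. In male library 1, 1 excitatory-like neuron held 1713 Oxt UMIs, 7.06% of its RNA, beside 4 UMIs of Otp, 2 of Sim1, 2 of Slc17a6 and 2 of Avp. In female library 3, all 18 Oxt UMIs lay in 1 called doublet. The other high-UMI cells were an inhibitory-like neuron of male library 1 with 26 Oxt UMIs and a called doublet of male library 2 with 32. Oligodendrocytes held 0.637, 6.88 and 0 CPM of Oxt in female, against 3.07, 0.298 and 1.64 CPM in male libraries. High-UMI neurons held 67.8% of the 2566 Oxt UMIs, and 689 of the 719 cells with Oxt held 1 UMI. No library had enough high-UMI Oxt cells for a fit, so genes of oxytocin neurons were not tested.

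Oxt UMIs were present in some vasopressin cells. In the high-UMI Avp neurons Oxt was 5.04, 31.5, 17.9, 9.03 and 20.1 CPM in female libraries 1 and 2 and male libraries 1, 2 and 3, against 1.84, 4.92, 63.7, 0.238 and 2.04 CPM in other neurons. It was higher in 4 of 5 libraries (90 UMIs, log2 1.349 ± 0.43, adjusted p = 0.0082, edgeR), but lower without female library 2 (-0.49). The excitatory-like Avp cells held 28 Oxt UMIs, or 2.08 per 1000 Avp UMIs, and the inhibitory-like ones 62, or 0.655 per 1000. The cell with the most Avp (3306 UMIs, female library 2) held 19 Oxt UMIs. Assignment of reads from the shared exon 2 run was not tested.

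Avpr1a was found mostly in neurons, in few copies. It was 4.48, 3.69 and 0.803 CPM in female libraries 1, 2 and 3, against 3.22, 1.70 and 3.08 CPM in male libraries, which overlapped. Of 18196 neurons 517 held an Avpr1a UMI (2.84%, 95% exact binomial interval 2.60% to 3.09%, counting error only), against 23 of 11626 non-neuronal cells (0.198%). Median depth differed, at 9683 UMIs in Avpr1a neurons, 6943 in the other neurons and 4473 in non-neuronal cells. With every cell thinned to 2000 UMIs, 0.901% of inhibitory-like neurons, 0.620% of excitatory-like neurons and 0.0194% of mature oligodendrocytes held one. Astrocytes were at 0.269% on 2 cells, and endothelial cells, mural cells and newly formed oligodendrocytes at 0.230% to 0.242% on 1 cell each. Oligodendrocyte precursors were at 0.0669%, and microglia, macrophages, fibroblasts and dividing cells at 0. Before thinning only 90 neurons held 2 or more Avpr1a UMIs, and the highest held 5, so most positive cells rest on 1 molecule.

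Among neuron clusters Avpr1a was highest in clusters 36 and 1, both led by clock nucleus genes. With UMIs pooled over libraries it was 25.5 CPM in cluster 36 (110 cells led by Vip, Grp and Lhx1os) on 23 UMIs and 21.0 CPM in cluster 1, with 14.5% and 11.9% of cells positive. Cluster 1 held 24.4% of all neuronal Avpr1a UMIs, at 22.3, 18.8 and 14.7 CPM in female libraries 1, 2 and 3, against 19.9, 24.2 and 38.3 CPM in male libraries. Next came cluster 7 (Npy, Sst, Sfrp1) at 13.7 CPM, cluster 13 (Gbx1, 2610028E06Rik, Satb1) at 11.7 CPM and cluster 17 (Gal, Apoc3, Th) at 10.75 CPM. By the mean over libraries the order was cluster 36 (30.4 ± 20.1 CPM, n = 3), cluster 1 (23.0 ± 8.14, n = 6), cluster 17 (14.1 ± 10.8), cluster 7 (13.7 ± 2.67) and cluster 13 (11.8 ± 3.12, n = 5 each), which puts cluster 17 ahead of clusters 7 and 13. Clusters 36 and 1 overlapped in their libraries, as did clusters 7, 13 and 17. Across broad classes the mean was 5.01 ± 1.68 CPM in inhibitory-like neurons (SD, n = 6), 2.49 ± 1.86 CPM in excitatory-like neurons (n = 5) and 0.204 ± 0.236 CPM in mature oligodendrocytes (n = 6). Macrophages stood between the neuron classes at 2.60 ± 5.19 CPM on 1 UMI, and astrocytes, endothelial and mural cells lay at 1.47 to 1.64 CPM on 3 to 7 UMIs.

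**Figure D4:**
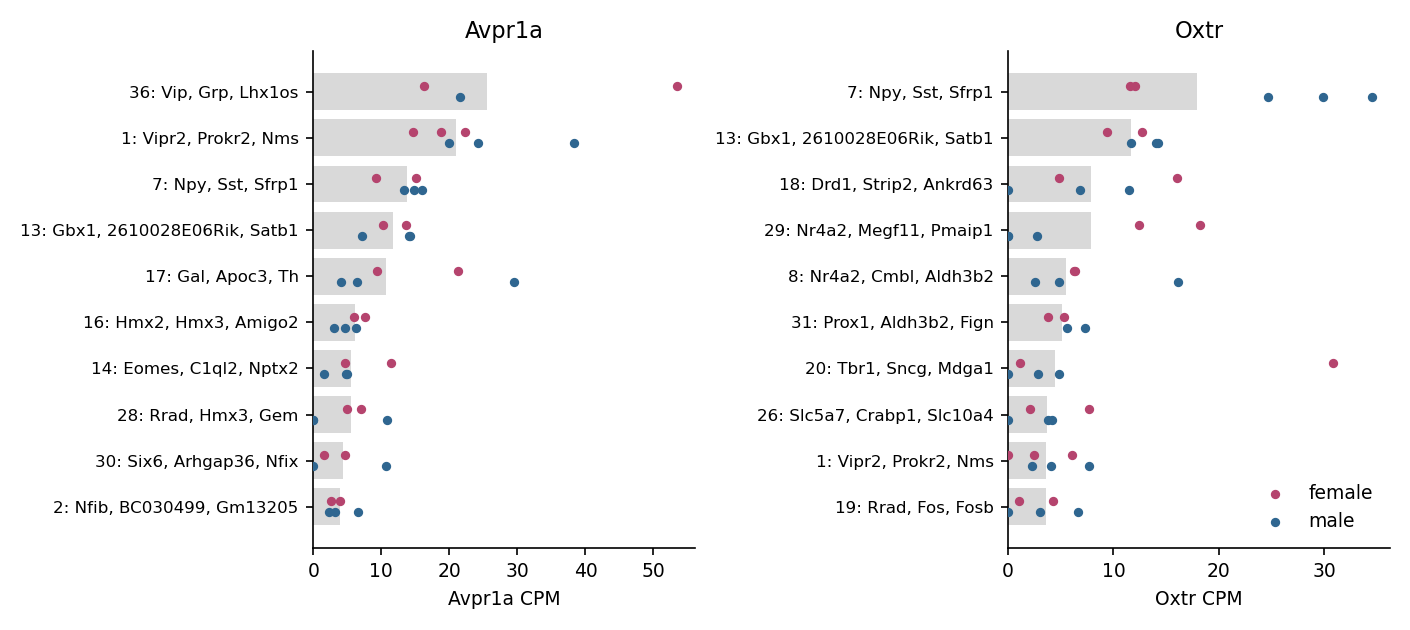
Avpr1a (left) and Oxtr (right) in CPM in the 10 neuron clusters with the highest pooled level of each, named by number and 3 leading genes; grey bars are UMIs pooled over libraries, points are single female and male libraries. By pooled level Avpr1a is highest in clusters 36 and 1 (25.5 and 21.0 CPM) and Oxtr in cluster 7 (17.97 CPM).

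Avpr1a neurons carried more of the clock peptides than other neurons. In the fit over 5 libraries 1598 of 11906 genes were called (13.4%), 772 higher (6.48%) and 826 lower (6.94%); by total UMIs the split was 552 and 1043. Avp was 2649, 2919, 1436, 2581 and 4924 CPM in the Avpr1a neurons of female libraries 1 and 2 and male libraries 1, 2 and 3, against 688, 1194, 305, 307 and 604 CPM in other neurons, higher in 5 of 5 (log2 2.31 ± 0.12, adjusted p = 3.14e-17, edgeR). The direction turned round with neuron cluster 1 left out. Without it 1099 of 11728 genes were called (9.37%; 4.35% higher and 5.02% lower), and Avp was lower in Avpr1a neurons, at 44.6 CPM and 101 CPM in other neurons (log2 -1.40, adjusted p = 0.00021, edgeR). Within it Avp was higher (0.36 ± 0.06, adjusted p = 0.00035). Of 17 clock nucleus genes 11 were higher and 1 lower. Nms averaged 52.4 ± 17.3 CPM in Avpr1a neurons and 9.48 ± 3.84 CPM in other neurons (log2 2.21 ± 0.17). Vip was higher on average, at 411.5 ± 497 and 92.4 ± 55.5 CPM (log2 2.33 ± 0.33), but in 3 of 5 libraries.

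Among 16 other peptide genes 4 were higher and 6 lower in Avpr1a neurons. Gal, galanin, averaged 642 ± 301 CPM there and 229 ± 57.0 CPM in other neurons (log2 1.32 ± 0.13), Sst 1511 ± 900 and 498 ± 142 CPM (1.42 ± 0.14), and Nnat 1494 ± 536 and 692 ± 83.4 CPM (1.05 ± 0.08). Npy was also called (1.32 ± 0.22) but was higher in 3 of 5 libraries. Penk, proenkephalin, was lower, at 219 ± 89.4 and 747 ± 145 CPM (-1.50 ± 0.10), and so was Crh, the stress peptide, at 8.37 ± 4.83 and 39.3 ± 9.85 CPM (-1.85 ± 0.18). Of the receptor signalling genes 6 of 11 were lower and 0 higher, Plcb1 by -0.75 ± 0.09 and Rgs2 by -0.66 ± 0.08. Processing genes were higher in 5 of 11 cases, led by Chga (0.57 ± 0.06), core clock genes in 2 of 13 (Cry1 0.74 ± 0.10, Arntl 0.49 ± 0.16), and hormone receptors lower in 3 of 8. Transmitter genes were higher in 3 of 8 cases and lower in 1, and magnocellular genes higher in 1 and lower in 2 of 9. Blood cell markers were lower in 3 of 3 cases (6.80 to 27.5 CPM, against 4.11 to 124 CPM). Tanycyte markers were lower in 1 of 2 (0 to 27.7 CPM, against 72.9 to 120 CPM, with Rax and Adm at 0) and endothelial markers in 1 of 3 (15.6 to 34.9 CPM, against 35.98 to 58.2 CPM). Macrophage markers came to 0 to 1.21 CPM in Avpr1a neurons and 1.36 to 2.03 CPM in other neurons, with none tested, and the part of these markers was not tested.

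The leading genes of Avpr1a neurons after Avp were Nms, Creb3l1 (log2 2.21), 9330185C12Rik (2.15), Ghrh (2.03), 2610028E06Rik (1.98) and Hdc (1.93). Of these, Nms and Creb3l1 are also among the leading genes of clusters 1 and 36, and 2610028E06Rik of cluster 13. Adora2a (-3.04 ± 0.29) and Gnrh1 (-3.03 ± 0.31) were among the lowest, but Gnrh1 came to 0.20 to 58.2 CPM in the other neurons of single libraries. Within cluster 1 alone 97 of 6740 genes were called (1.44%; 0.579% higher and 0.861% lower). The Avpr1a cells there held more Lhx1 (log2 1.46), Lmo2 (2.15), Nxph1 (1.78), Ppp1r17 (1.27) and Cartpt (1.62), and less Cck (-3.92), Bdnf (-3.55) and Prokr2 (-1.48). Oxt was lower in Avpr1a neurons by the fit (log2 -1.36 ± 0.35, adjusted p = 0.0056, edgeR) at 4.95 ± 3.76 and 15.1 ± 27.8 CPM, yet higher in 2 of 5 libraries.

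Oxtr was likewise sparse and found mostly in neurons, and the neuron clusters in which it was highest were in part shared with Avpr1a. It was 2.48, 2.09 and 0 CPM in female libraries 1, 2 and 3, against 2.76, 2.42 and 2.51 CPM in male libraries. The libraries overlapped, and female library 3 was listed at 0. Of 18196 neurons 419 held a UMI (2.30%, 95% exact binomial interval 2.09% to 2.53%), against 22 of 11626 non-neuronal cells (0.189%). In female library 3 it was 0 of 108 neurons, which allows a share of up to 2.78% of neurons with an Oxtr UMI, at a median depth of 3233 UMIs, and does not limit the share that express the gene. Median depth was 8980 UMIs in Oxtr neurons and 6996 in the others. Thinned to 2000 UMIs, 0.879% of inhibitory-like neurons, 0.279% of excitatory-like neurons and 0.0581% of mature oligodendrocytes held one. Astrocytes were at 0.269%, on 2 of 743 cells, close to the excitatory-like neurons, and macrophages at 2.78%, on 2 of 72. Only 35 neurons held 2 or more Oxtr UMIs before thinning.

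With UMIs pooled over libraries Oxtr was highest in neuron cluster 7, inhibitory-like cells led by Npy, Sst and Sfrp1, where 14.5% of 717 cells were positive. The cluster held 27.5% of neuronal Oxtr UMIs and 15.2% of neuronal Avpr1a UMIs. Its level was 12.04 and 11.6 CPM in female libraries 1 and 2, against 24.6, 29.9 and 34.5 CPM in male libraries 1, 2 and 3, without overlap. Of 7583 genes in this cluster 33.3% had libraries that did not overlap by sex, 20.2% with female lower, and the split was seen after the fact and not tested. Cluster 13 followed at 11.7 CPM, the same pooled level as for Avpr1a, on 38 UMIs of each, then cluster 18 (Drd1, Strip2) at 7.91 CPM and cluster 29 (Nr4a2) at 7.89 CPM. By the mean over libraries cluster 7 (22.5 ± 10.4 CPM) and cluster 13 (12.4 ± 1.99) again led, but cluster 20 came next at 7.94 ± 12.9 CPM (n = 5 each), on 30.8 CPM in female library 1. Cluster 7 overlapped with cluster 13, and clusters 18 and 29 ranged down to 0 in single libraries. By class the mean was 3.39 ± 1.84 CPM in inhibitory-like neurons, 3.23 ± 2.06 CPM in the neurons with no clear class (n = 6 each) and 1.33 ± 0.94 CPM in excitatory-like neurons (n = 5). Macrophages were listed first at 5.14 ± 10.3 CPM, on 3 UMIs. Astrocytes, at 1.31 ± 1.26 CPM on 5 UMIs (n = 6), lay beside the excitatory-like neurons.

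In the fit of Oxtr neurons 404 of 11662 genes were called (3.46%), 198 higher (1.7%) and 206 lower (1.77%). Sst was 2522, 3152, 2245, 4714 and 5388 CPM in the Oxtr neurons of female libraries 1 and 2 and male libraries 1, 2 and 3, against 455, 643, 318, 482 and 315 CPM in other neurons, without overlap (log2 2.94 ± 0.11, adjusted p = 7.06e-21, edgeR). Npy averaged 2088 ± 2319 and 125 ± 55.7 CPM (log2 3.41 ± 0.30). The other leading genes were Sfrp1 (2.79 ± 0.14), Crhbp (2.13 ± 0.19), Sox6 (2.02 ± 0.15), Moxd1 (2.02), Satb1 (2.01 ± 0.13), Ptgs1 (1.84), Lats2 (1.76) and Lypd6 (1.62). Sox6 and Satb1 are factors of somatostatin interneurons. But Sst, Npy, Sfrp1, Sox6, Satb1 and Lypd6 are all among the leading genes of neuron cluster 7, where pooled Oxtr was highest. Nos1, the nitric oxide synthase, was higher (0.93 ± 0.17), with Gad1, Gad2 and Slc32a1, and Slc17a6 (-1.08 ± 0.14) and Slc18a2 lower, among 8 transmitter genes.

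Other lists moved less. Peptides were higher in 2 and lower in 7 of 15 cases, Penk at 271 ± 145 CPM in Oxtr neurons and 742 ± 146 CPM in other neurons (log2 -1.22 ± 0.12) and Trh at 37.7 ± 43.7 and 175 ± 57.3 CPM (-1.87 ± 0.18). Clock nucleus genes were lower in 5 of 17 cases and higher in 0. Processing genes were higher in 2 of 11 cases (Pam 0.32, Chga 0.25) and lower in 1 (Pcsk2 -0.33). Magnocellular genes were higher in 1 of 8 cases (Pou3f2 1.21 ± 0.13) and lower in 2, signalling genes lower in 1 of 11 (Rgs4 -0.28), and 0 of 8 hormone receptors and 0 of 13 core clock genes were called. Blood cell markers were lower in 3 of 3 cases (0 to 21.6 CPM, against 4.19 to 121 CPM, with Alas2 at 0), and excitatory neuron markers in 1 of 2 (0 to 60.3 CPM, against 88.8 to 110 CPM, with Slc17a7 at 0). Tanycyte markers were lower in 1 of 2 cases (33.4 to 101 CPM, against 70.7 to 118 CPM), and the sum of dividing cell markers was 0 to 6.03 CPM in Oxtr neurons and 6.98 to 12.7 CPM in other neurons. The part of these markers was not tested. At the far end lay Gnrh1 (-3.51), Sln (-3.49) and Adora2a (-2.80). Avp was 680, 619, 201, 14.3 and 725 CPM in Oxtr neurons, against 780, 1286, 348, 371 and 713 CPM in other neurons, lower in 4 of 5 libraries (log2 -0.93 ± 0.18, adjusted p = 0.00081, edgeR). Without cluster 7 it was -0.58 (adjusted p = 0.051), and 74 of 11534 genes were called (0.642%; 0.269% higher and 0.373% lower).

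Within cluster 7, 47 of 7582 genes were called (0.62%), 25 higher (0.33%) and 22 lower (0.29%). Oxtr cells there still held more Sst (log2 0.85), Npy (0.49), Sfrp1 (1.07), Crhbp (1.58), Reln (1.06) and Nos1 (0.91), and less Cxcl14 (-3.01), Cadps2 (-2.07) and Mef2c (-1.95). The counts for both receptors moved with the libraries and cells that entered. Without female library 2 the Avpr1a count was 1059, and without male library 1 or 2 the Oxtr count was 224 or 251; thinning neurons to 3000 UMIs left 307 and 119 genes. Thinning also cut the Avpr1a cells to 194 and the Oxtr cells to 156, so depth and the number of cells cannot be told apart.

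**Figure D5:**
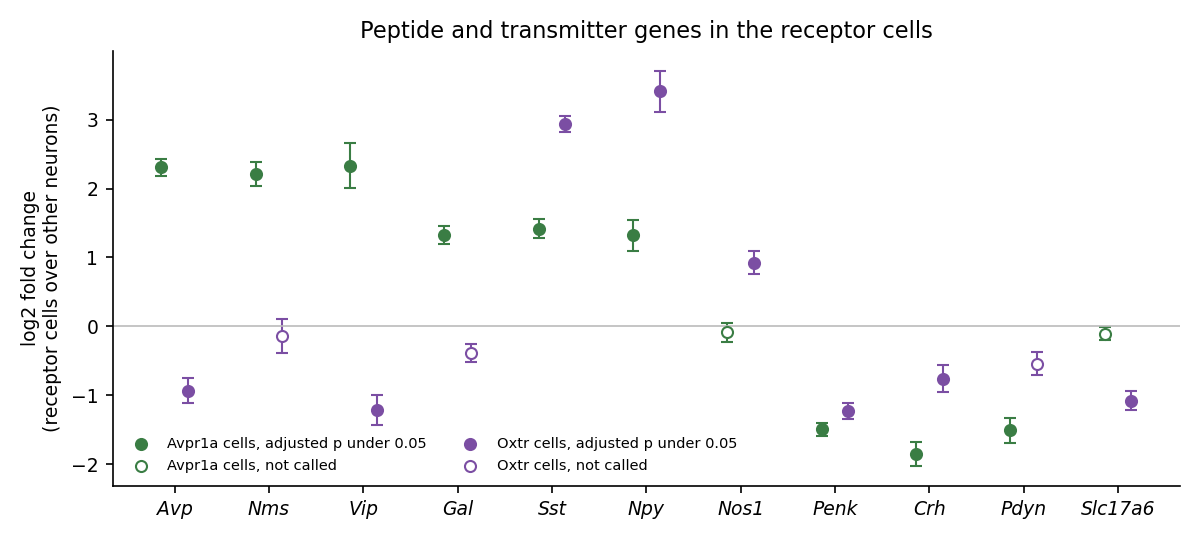
Log2 fold change ± SE of peptide and transmitter genes in Avpr1a neurons and in Oxtr neurons over the neurons without the receptor (5 libraries, library as block). Avp lies at 2.31 for Avpr1a and at -0.93 for Oxtr, Npy at 1.32 and 3.41, and Slc17a6 at -1.08 for Oxtr.

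Both receptors were detected in 22 neurons, 4.26% of the Avpr1a neurons and 5.25% of the Oxtr neurons. Among all neurons 2.84% held an Avpr1a UMI and 2.30% an Oxtr UMI, and the receptor cells were the deeper ones, as given above. With most positive cells at 1 UMI, detection does not show that the receptors lie in different cells. Oxtr averaged 14.1 ± 15.8 CPM in Avpr1a neurons and 3.28 ± 0.52 CPM in the others (log2 1.07 ± 0.40, adjusted p = 0.071, edgeR), and outside cluster 1 it was called (1.38, adjusted p = 0.036). Among high-UMI Avp neurons, 14.7% held an Avpr1a UMI and 2.04% an Oxtr UMI, against 2.48% and 2.31% of the other neurons. The other vasopressin receptors were all but absent, with 2 UMIs of Avpr1b and 1 of Avpr2 in all cells.

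Across classes the Avp mean was 992 ± 492 CPM in inhibitory-like neurons (n = 6) and 253 ± 460 CPM in excitatory-like neurons (n = 5), higher in inhibitory-like neurons in 5 of 5 libraries (p = 0.0625 by exact sign flips, the smallest 5 pairs allow). All other named classes lay between 29.6 CPM in mature oligodendrocytes and 94.2 CPM in mural cells. The Oxt mean was 61.1 ± 132 CPM in excitatory-like neurons, set by 1 cell, and 0 to 5.51 CPM elsewhere. With 3 to 6 libraries shared by neighbouring classes and 48 such pairs over the 4 genes, no pair passed the exact sign-flip test (adjusted p = 1.0 throughout, smallest unadjusted p = 0.0625), and the order of the classes is a description.

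Over 56 cell clusters the genes with the most similar pattern among 12702 compared were Prokr2 (Pearson r of log2 level = 0.62), Nms (0.60), C2cd4b, Oxt and 9330185C12Rik for Avp. They were Dapl1 (0.65), Avp, Prdm8, Vgll3 and Sst for Oxt, 2010005H15Rik (0.70), Chodl, Resp18, Fbxl21 and Vip for Avpr1a, and Chrm3 (0.72), Htr2c, Pgm2l1, Mmp24 and Smim13 for Oxtr. These values describe clusters that share libraries, depth and background RNA. Of the 2566 Oxt UMIs, 1713 lay in a single cell of neuron cluster 34, which is led by Sst, Prdm8 and Vgll3. The part of that cell in the Oxt pattern was not tested.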

How the data were processed

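The authors deposited raw UMI counts per gene and cell for all 6 libraries in 1 table, the library given by the ending of each barcode, per the labels. Cell Ranger 2.0.0 and build mm10 are named in the submitters' processing notes; the annotation, strand and chemistry are not stated there. Cells with under 500 genes or over 20% mitochondrial UMIs were left out. Doublets were called by Scrublet in scanpy 1.11.5 and kept as a class of their own. Clusters (2000 variable genes, 30 components, 15 neighbours, Leiden at resolution 1.0, 1.5 within neurons, seed 0) left out 6 genes (the 4 members, Avpr1b and Avpr2). Classes were rebuilt from marker lists, so they may differ from the authors'; 1596 cells in 5 clusters stayed unnamed. A receptor cell held at least 1 UMI.

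UMIs were summed per library (sex) or per library and cell group with library as block, and tested over all genes with edgeR 4.0.16 in R 4.3.3 (quasi-likelihood, TMM, default filter, Benjamini-Hochberg, call at 0.05). A library entered with at least 20 cells of a class or 10 of each cell group. The SE is the log2 fold over the root of F. Shares were compared by exact permutation (smallest p 0.1). Scripts were tested on simulated data. Alternatives were DESeq2 1.42.0, filters, thinning, left-out libraries, subsets and scaling. The 4 members and 8 lists were chosen with earlier results of these data known. Named genes were the members, up to 4 per list by smallest p, and the 10 highest and 5 lowest called genes of one sign in every library; other genes named were chosen after their values were seen. Intervals cover counting error only. Promoters of all 4 members were found in the RefSeq table.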

Additional observations from a re-analysis of the deposited data

Results flagged for a closer look

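Avpr1a in Oxtr neurons differed in sign between the sexes, on few UMIs. Its mean log2 ratio of Oxtr neurons to other neurons was -0.46 in the female libraries that entered and 1.63 in the male libraries, every female library below 0 and every male one above it, a difference of -2.09. The values were 4.52 and 2.68 CPM in Oxtr neurons of female libraries 1 and 2, against 5.82 and 4.67 CPM in their other neurons, and 8.42, 10.7 and 28.6 CPM in Oxtr neurons of male libraries 1, 2 and 3, against 4.17, 2.66 and 4.84 CPM. The Oxtr neurons held 3 and 4 Avpr1a UMIs in female libraries 1 and 2, against 7, 9 and 3 in male libraries 1, 2 and 3. Of 11663 genes in that comparison 5.23% had opposite signs in every library of each sex, 2.42% with the female libraries below 0. The difference between the sexes was not tested, and without neuron cluster 7 the Avpr1a log2 fold over all libraries was -0.013.

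Peptide RNA was also high in cells outside the comparisons. Of the cells called doublets, 22 were high-UMI for Avp and 1 for Oxt, and 3 cells in non-neuronal clusters were high-UMI for Avp.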

How the results depend on the processing

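Of the single-gene values, 798 kept direction and call under other settings and 628 with a library left out, 107 and 7 lost the call, 9 and 4 gained it, and 26 and 7 reversed. Members called between the sexes numbered 1 in inhibitory-like neurons with no low-count filter and 1 with the replicate block, and in excitatory-like neurons 2, 2 and, without high-UMI Avp cells, 1. With a library left out they ranged from 0 to 1 in each class and were 0 in all cells. Female and male pools of the same replicate number correlated at 0.36, 0.089 and 0.27. No pools of unlike number were compared, so whether the numbers pair the pools was not tested. The Avp share difference ranged from 1.45 to 2.85 and that of Oxt from -0.022 to 0. Calls for Avp neurons numbered 5049 to 6366 with a library left out and 593 within cluster 1. For Avpr1a neurons they were 1059 to 1637, 954 with DESeq2, 647 with no replicate block, 314 at 2 or more UMIs, 307 thinned to 3000 UMIs and 97 within cluster 1. For Oxtr neurons they were 224 to 495, 195 with DESeq2, 104 with no replicate block, 119 thinned, 47 within cluster 7 and 74 without it.

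Among the members and the genes taken by the naming rule, values that reversed, on the log2 scale, were as follows, and the cause was not tested. With a library left out, Oxt ranged from -0.54 (without male library 1) to 1.14 between excitatory-like neurons and mural cells and from -2.16 to 1.96 (without male library 1) between the sexes in all cells; between the sexes in inhibitory-like neurons it was -0.46 without female library 2 and -0.26 without male library 2, with 1.99 the highest. Avpr1a by sex was -0.20 in cluster 1, and Avp in excitatory-like neurons -0.21 without female library 2, with 4.56 the highest. In Avp neurons Oxt was -0.49 without female library 2, with 2.95 the highest, and Oxtr -0.057 without male library 3 (to 0.37) and -0.076 by total UMIs. Within cluster 1 they gave C1ql3 -0.28, Six6 -0.15, Calb1 -0.37, Magel2 -0.13, Sst 0.23, Chga -0.60, Cpe -0.086, Chgb -0.072 and Nr1d1 -0.19, and outside the rule Prokr2 -0.73, Cck -2.12, Gad1 -0.45 and Slc32a1 -0.27. In Avpr1a neurons at 2 or more UMIs Oxtr was -1.29 and Otp 0.40. Within cluster 1 Rorb was -0.033, Scg2 -0.35, Penk 0.69, Chga -0.15, Ctsl -0.018, Gad1 -0.49 and Plcb1 0.42, and without it Avp -1.40. In Oxtr neurons Ghr was 0.09 when thinned, Avp 0.058, Pcsk2 0.78 and Gad1 -0.22 within cluster 7, and Avpr1a -0.013 without it. Oxt cells, and Oxtr cells at 2 or more UMIs, could not be fitted because no library held 10. Receptor cells rest on 1 or a few UMIs each, which limits every count above.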
